A study of Mus musculus with 10 samples.

Results

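Bdnf, Ntf3, Ntrk2, Ntrk3, Ngfr, Cntfr, Lifr, Il6st and Gfra1 encode 2 neurotrophin ligands and 7 receptors or receptor subunits for neurotrophins, ciliary neurotrophic factor (CNTF), leukaemia inhibitory factor (LIF) and glial cell line-derived neurotrophic factor (GDNF). The 9 genes were chosen by pathway with the measured difference between the genotypes already known: Cntfr was selected on its higher log2 ratios in knockout mice. Their differences between genotypes are therefore given as a description, with intervals and without tests. Every probe whose RefSeq accession belongs to 1 of the 9 genes was taken, which gave 16 of the 39429 probes on the array. Ntrk2 had 3 probes, Ntrk3 had 4 and Lifr had 3, and the other 6 genes had 1 probe each. In the sample channel all 16 exceeded background clearly on each of the 10 arrays by the scanner software's own test, and none was saturated.

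The study compared hippocampal RNA of adult mice with a conditional knockout (cKO) of DLK and of mice that were DLK wild type (WT), 5 of each, with 1 mouse per array. DLK is a dual leucine zipper kinase, the product of Map3k12, and acts upstream of the JNK pathway in neurons. Each array read the RNA of 1 mouse, labelled with Cy5, against Stratagene's Universal mouse reference, a commercial RNA pool, labelled with Cy3, with no dye swap. The values are log2 ratios of Cy5 over Cy3. The cKO mice had received a tamoxifen diet for 3 weeks, which induced the loss of DLK, and the WT mice had received the same diet for the same time. The labels state neither the recombinase and its promoter nor the exons removed, and give no sex and no age beyond adult. P-values measure the spread between these mice. The tissue is a bulk extract, in which fewer cells of a type and less RNA per cell cannot be told apart.

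Neurotrophins are secreted growth factors that act on 2 kinds of receptor. BDNF binds the tyrosine kinase TrkB (Ntrk2) and NT-3 (Ntf3) binds TrkC (Ntrk3), while the p75 receptor (Ngfr) binds all neurotrophins and their uncleaved precursors. In the adult hippocampus BDNF is made mainly by excitatory neurons, rises with neuronal activity and is known for its part in synaptic plasticity. CNTF binds its own receptor subunit (Cntfr), which is anchored to the membrane by a lipid, and signals through the LIF receptor (Lifr) and gp130 (Il6st) to JAK kinases and STAT3. GDNF binds GFRα1 (Gfra1), also lipid-anchored, which signals through Ret or NCAM.

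The targeted gene, Map3k12, had log2 ratios of 0.11 to 0.68 in the cKO mice and of 1.74 to 2.15 in the WT mice, so each array went with its label. On the log2 scale it was lower by a difference of -1.41 in the cKO mice (SE 0.12, limma adjusted p = 0.000975) and was the only 1 of 23574 features to pass adjusted p under 0.05, or 0.00424% of them. A feature is the brightest kept probe of a gene, or of an accession that matched no gene. None of the 9 genes passed, nor did any of the 16 probes when every kept probe was tested on its own (0.0105% of 28682 probes). Unadjusted, 911 features had p under 0.05, or 3.86%. The median difference over the 9 genes was 0.02, with 5 higher and 4 lower in the cKO mice. Over all features the median was 0.0083, with 12920 higher and 10654 lower. The values by mouse are plotted gene by gene.

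**Figure D1:**
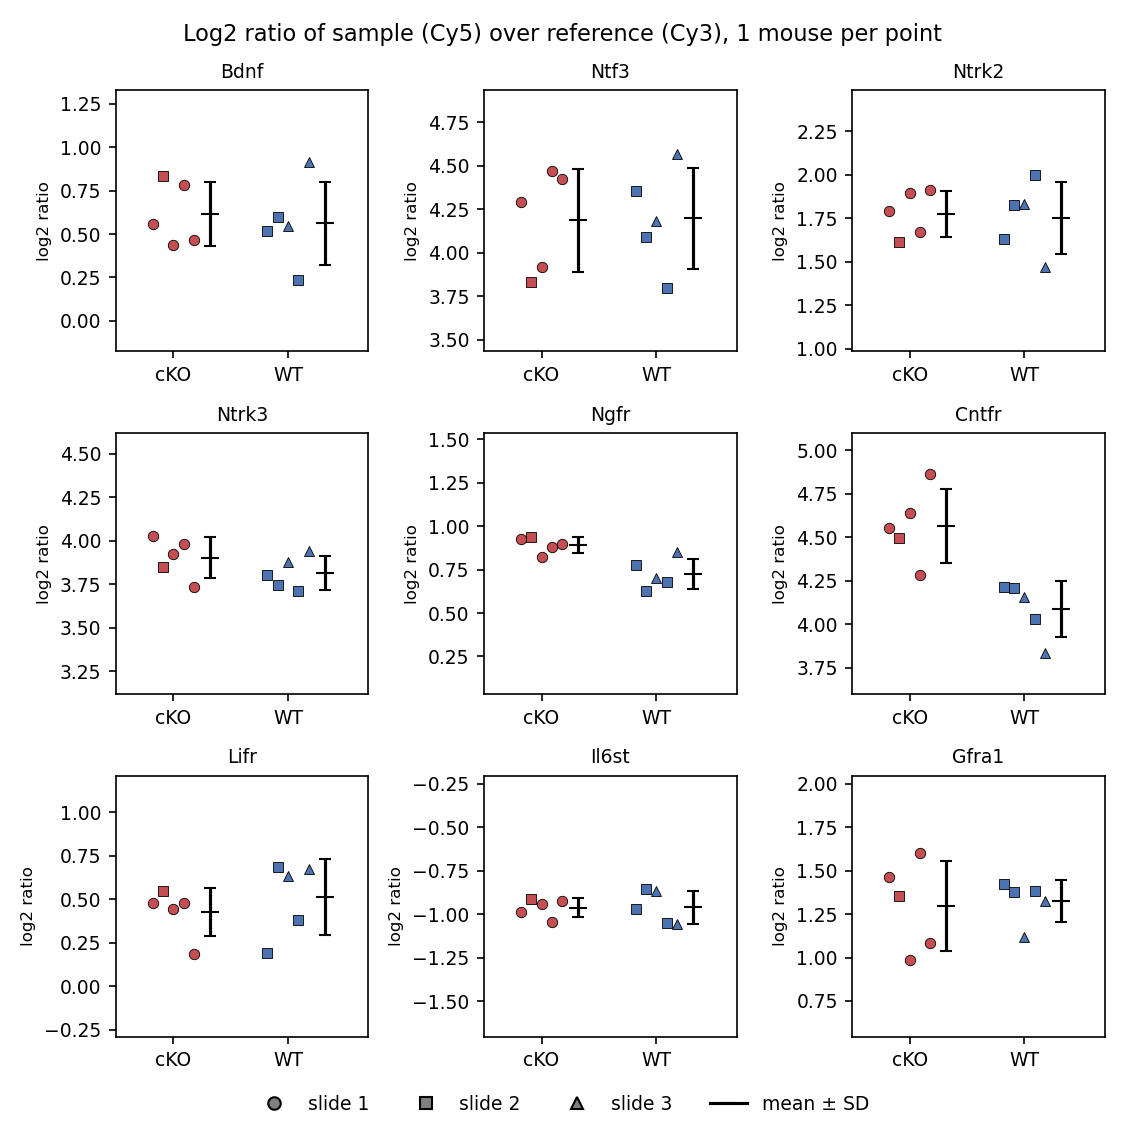
Log2 ratio of sample over reference (vertical axes, a different range in each panel) in 5 cKO mice (left) and 5 WT mice (right) for the brightest probe of each of the 9 genes; points are single mice, their shapes show the slide, and bars show the mean ± SD. The cKO and WT points are apart for Cntfr and overlap for the other 8 genes.

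The ligand Bdnf (NM_007540) had log2 ratios of 0.56, 0.84, 0.44, 0.78 and 0.46 in cKO mice 1 to 5, and of 0.52, 0.60, 0.54, 0.24 and 0.91 in WT mice 1 to 5. Both the highest and the lowest of the 10 mice were WT, so the cKO values lay inside the WT range. The means were 0.62 ± 0.18 in cKO mice and 0.56 ± 0.24 in WT mice (SD, n = 5 each), a difference of 0.05 with a 95% interval of -0.20 to 0.31. The pooled SD within genotypes was 0.214, larger than that of 88.8% of features. On the fold scale that interval runs from 0.870 to 1.24.

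Ntf3 (NM_001164034) had log2 ratios of 4.29, 3.83, 3.92, 4.47 and 4.42 in cKO mice, and of 4.35, 4.09, 4.18, 3.80 and 4.57 in WT mice. The WT values enclosed those of the cKO mice, and the difference was -0.01 (95% interval -0.35 to 0.32). This gene had the widest scatter of the 9, with a pooled SD of 0.292 that was larger than in 97.1% of features. The reference RNA gave little signal for it: Cy3 was well above background on 0 cKO arrays and 2 WT arrays, with intensities of 49 to 55 on the cKO arrays and 50 to 62 on the WT arrays. The sample channel held the signal, at 1251 to 2236 in cKO mice and 1402 to 2486 in WT mice.

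Of the 8 genes that could be searched, Bdnf was the 1 with a promoter match to AP-1, the dimer that contains Jun, a JNK substrate. The match is shown because DLK acts upstream of JNK. RefSeq promoter windows of build GRCm38.p6, from 250 bases before to 50 bases after a transcript start, were found for 8 of the 9 genes, 21 windows in all. Ntrk3 had no window. Both strands were searched for AP-1 (TGANTCA), CRE (TGACGTCA) and STAT (TTCNNNGAA). None of the 3 motifs contains another. AP-1 was found in 1 window, the second of 7 for Bdnf, starting 152 bases before the transcript start. A STAT match lay in the first Bdnf window, starting 122 bases before its start, and CRE was in none. Over all 32851 RefSeq windows the shares with a match were 7.81% for AP-1, 1.79% for CRE and 8.30% for STAT. The 1 AP-1 match in 21 windows is no more than that share, and Bdnf had the most windows of the 8 genes. The 250 bases before the second Bdnf start, chr2:109676782-109677031 on the plus strand, have 53.6% G and C and 4 CpG, with the AP-1 match in capitals.
Bdnf: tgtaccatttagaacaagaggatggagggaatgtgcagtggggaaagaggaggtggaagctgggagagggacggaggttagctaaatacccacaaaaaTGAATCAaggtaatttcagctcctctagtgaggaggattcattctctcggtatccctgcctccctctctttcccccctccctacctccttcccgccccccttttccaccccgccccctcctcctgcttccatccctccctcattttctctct
A match is a description of the letters, and binding was not measured here. The Bdnf probe does not tell which of the starts was used.

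Ntrk2 encodes TrkB, which exists as a full-length kinase and as a truncated receptor without the kinase domain, the form that astrocytes express. Its brightest probe (A_55_P2006792, NM_001025074) had log2 ratios of 1.79, 1.61, 1.89, 1.67 and 1.91 in cKO mice, and of 1.63, 1.83, 1.83, 2.0 and 1.47 in WT mice. The WT values enclosed the cKO values, and the difference was 0.02 (95% interval -0.19 to 0.24). The other probe of the same accession, A_51_P393454, is printed on each array in 10 copies. It had 4.17, 4.12, 3.85, 4.07 and 3.86 in cKO mice, and 3.77, 3.81, 3.87, 3.94 and 4.01 in WT mice, a difference of 0.13 (95% interval -0.04 to 0.30).

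The probe of the second Ntrk2 transcript, NM_008745 (A_65_P04961), had log2 ratios of 4.48, 4.15, 4.42, 4.32 and 4.41 in cKO mice, and of 4.53, 4.43, 4.72, 4.56 and 4.36 in WT mice. The difference was -0.16 (95% interval -0.33 to 0.01), and the groups overlapped. The files and labels do not say which form of the receptor each accession encodes. Within an array, A_51_P393454 minus A_65_P04961 was -0.34 ± 0.22 in cKO mice (-0.56 to -0.04) and -0.64 ± 0.19 in WT mice (-0.85 to -0.35; SD, n = 5 each). The difference between genotypes was 0.29, with overlapping ranges. With the brightest probe, A_55_P2006792, in place of A_51_P393454 it was 0.19, also with overlap. The 2 probes of NM_001025074, set against each other in the same way, differed by 0.11. Cy3 was well above background on 2 cKO and 2 WT arrays for A_65_P04961 and on all 10 arrays for A_51_P393454.

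Ntrk3 encodes TrkC, which also exists with and without a kinase domain. Its brightest probe (A_66_P118329, NM_008746) had log2 ratios of 4.02, 3.85, 3.92, 3.98 and 3.73 in cKO mice, and of 3.80, 3.74, 3.88, 3.71 and 3.94 in WT mice. The ranges overlapped over most of their length, and the difference was 0.09 (95% interval -0.06 to 0.24). Its pooled SD of 0.106 was close to the median of 0.120 over all features.

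The other 3 Ntrk3 probes scattered more. A_55_P2056533 of the same transcript had 3.88, 3.59, 2.93, 3.81 and 2.83 in cKO mice, and 3.09, 3.35, 3.12, 3.17 and 3.76 in WT mice. For the transcript NM_182809, A_52_P500274 had 4.35, 4.15, 3.86, 4.43 and 3.44 in cKO mice, and 4.13, 4.05, 3.90, 4.10 and 4.51 in WT mice. Its second probe, A_55_P2006808, had 4.65, 4.38, 4.15, 4.57 and 4.17 in cKO mice, and 4.15, 4.31, 4.18, 4.65 and 4.58 in WT mice. For all 3 probes the cKO mice 1 and 4 were high and cKO mice 3 and 5 were low, and WT mouse 5 was at or near the top of the WT group. The differences between genotypes were 0.11, -0.09 and 0.01, each within an interval that includes 0.

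The probes of a gene were set against each other over the 10 mice, a relation that does not use the genotypes. Of 12 pairs, from Ntrk2, Ntrk3 and Lifr, 1 pair passed: A_52_P500274 and A_55_P2056533 of Ntrk3, which carry different transcript accessions. For A_55_P2056533 the reference was dim, with Cy3 well above background on 1 cKO and 2 WT arrays. They had Pearson's r = 0.877 (permutation p = 0.000180, adjusted 0.00216) and Spearman's rank correlation = 0.867 (permutation p = 0.00216, adjusted 0.0259; n = 10), and r was 0.883 without the 2 mice farthest from the median. The 2 probes of NM_182809 had r = 0.727 (adjusted permutation p = 0.0638). The 3 Ntrk2 pairs had r of -0.341, -0.478 and 0.485, and neither the probes of a shared accession nor those of different ones passed (adjusted permutation p of 0.248 to 0.397). The slides held 4, 4 and 2 of the arrays, too few for a correlation within a slide. The median Cy5 of whole arrays was highest for WT mouse 5 (202) and cKO mouse 4 (191). It was lowest for cKO mice 5 (146) and 3 (169). The part of this array-wide signal in the correlations was not tested. The plot of isoform probes shows these values mouse by mouse.

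**Figure D2:**
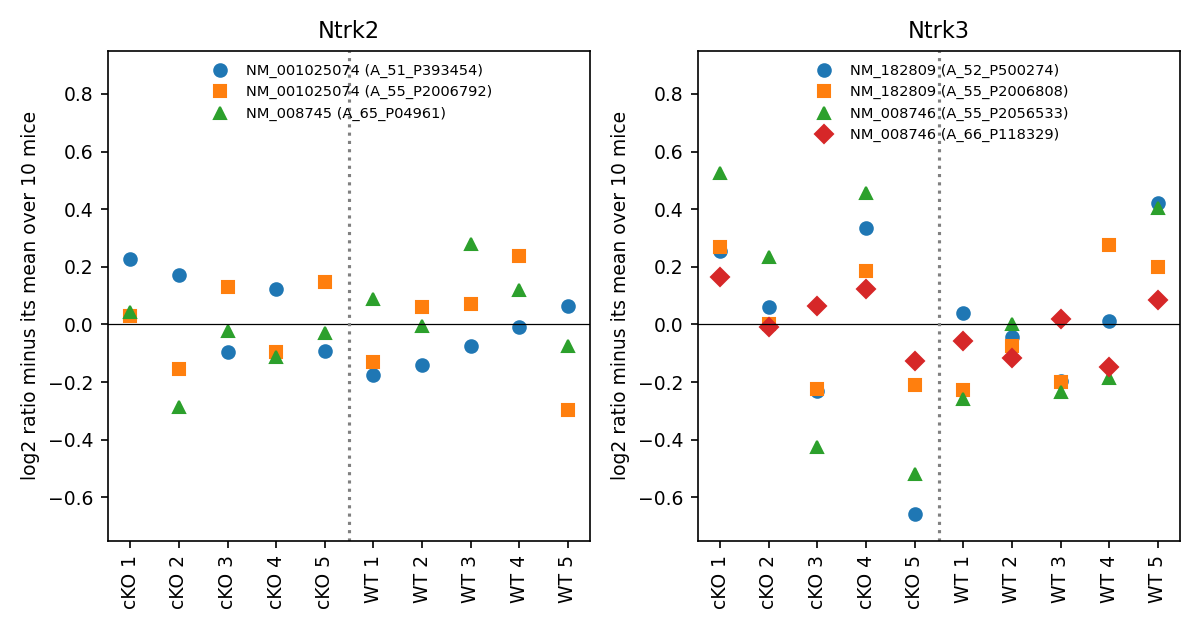
Log2 ratio of each Ntrk2 probe (left) and Ntrk3 probe (right) minus that probe's mean over the 10 mice (vertical axis), for cKO mice 1 to 5 and then WT mice 1 to 5 (horizontal axis, divided by the dotted line). The Ntrk3 probes A_52_P500274 and A_55_P2056533 follow each other across mice (r = 0.877), while the Ntrk2 probes cross.

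Ngfr (NM_033217), the p75 receptor, is in the adult forebrain typical of the cholinergic neurons that project to the hippocampus. Its probe is printed in 10 copies and had log2 ratios of 0.93, 0.93, 0.82, 0.88 and 0.90 in cKO mice, and of 0.77, 0.63, 0.70, 0.68 and 0.85 in WT mice. Of the WT mice, only number 5 reached into the cKO range. The means were 0.89 ± 0.05 in cKO mice and 0.73 ± 0.09 in WT mice (SD, n = 5 each), a difference of 0.17 (95% interval 0.05 to 0.29; fold 1.12). The spread was small, with a pooled SD of 0.0690, larger than in 10.9% of features.

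The estimated difference of Ngfr was smaller in the sample channel alone than in the ratio. Cy5 intensities were 204.9 to 295.55 in cKO mice and 225.55 to 345.5 in WT mice. From Cy5 alone, normalised between arrays, the difference was 0.02 (SE 0.08, beside 0.06 for the ratio). The reference RNA is the same on every array. Its Cy3 intensities were 106.4 to 117.8 on the cKO arrays and 115.75 to 130.8 on the WT arrays. The part of each channel in the difference was not tested. Of 8 marker genes of basal forebrain cholinergic neurons, 4 were measured, and Slc5a7, Lhx8 and Gbx1 were among those that were not. These neurons reach the hippocampus by projection, and whether the genes read them in hippocampal RNA was not tested. The list means were 0.43 to 0.61 in cKO mice and 0.40 to 0.68 in WT mice. Of the 4, 1 was higher and 3 were lower in cKO mice, with a median difference of -0.04. Chat, which makes acetylcholine, differed by 0.14 (SE 0.10) and Isl1, a transcription factor of these neurons, by -0.12 (SE 0.07).

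Cntfr (NM_001136056), the ligand-binding subunit of the CNTF receptor, had log2 ratios of 4.56, 4.50, 4.64, 4.28 and 4.86 in cKO mice, and of 4.22, 4.21, 4.16, 4.03 and 3.83 in WT mice. The lowest cKO mouse was above the highest WT mouse, and no other gene of the 9 had groups that were apart. Among features measured on all arrays, 0.525% had all cKO mice above all WT mice, but Cntfr was selected on this contrast and nothing is read from its place among them. The means were 4.57 ± 0.21 in cKO mice and 4.09 ± 0.16 in WT mice (SD, n = 5 each). The difference was 0.48 with a 95% interval of 0.25 to 0.71, or a fold of 1.39 (1.19 to 1.63), and it did not pass the adjusted threshold.

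The raw Cy5 intensities of Cntfr are the numerator of the ratios on which it was selected, so they are not a separate result. Cy5 was 2617.5, 2472, 2655, 2225 and 2227 in cKO mice, and 2033, 2119.5, 1890.5, 1966 and 1842.5 in WT mice, so the groups were apart in the sample channel. Cy3 was 61 to 73 on the cKO arrays and 59.5 to 75 on the WT arrays, over local backgrounds of 28 to 38.5, and the 2 groups overlapped. The scanner software called Cy3 well above background on 5 cKO arrays and 4 WT arrays. With Cy5 alone the difference was 0.36 (SE 0.11). It was 0.80 (SE 0.27) when all spots marked by the scanner software as non-uniform or outlying were kept in the background fit. No Cntfr spot was marked, so that setting added no Cntfr spot. The differences and intervals of all 16 probes are plotted together.

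**Figure D3:**
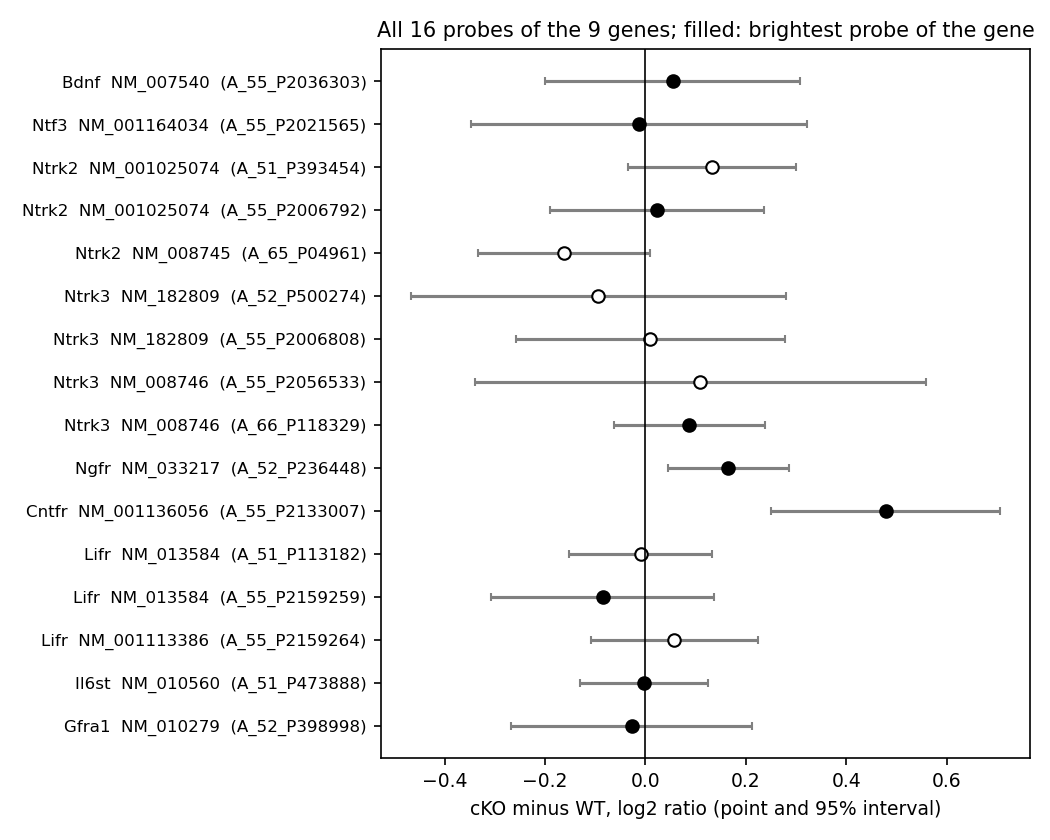
Difference in log2 ratio, cKO minus WT (horizontal axis), with its 95% interval for each of the 16 probes (rows, named by gene, accession and probe); filled points mark the brightest probe of a gene. The intervals of Cntfr and Ngfr lie above 0, and those of the other 14 probes include 0.

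For Cntfr 6 promoter windows were found, with 0 matches to AP-1, CRE or STAT. That says only that these letters are not in the windows. The sequence is shown because Cntfr is the 1 gene whose groups were apart. The 250 bases before the transcript start of the sixth window, the one that lies farthest upstream, are chr4:41696038-41696287 on the minus strand in build GRCm38.p6 and have 58.8% G and C with 10 CpG. The 6 Cntfr windows ranged from 54.4% to 78.4% and from 3 to 37 CpG, beside medians of 52.4% and 6 over all windows.
Cntfr: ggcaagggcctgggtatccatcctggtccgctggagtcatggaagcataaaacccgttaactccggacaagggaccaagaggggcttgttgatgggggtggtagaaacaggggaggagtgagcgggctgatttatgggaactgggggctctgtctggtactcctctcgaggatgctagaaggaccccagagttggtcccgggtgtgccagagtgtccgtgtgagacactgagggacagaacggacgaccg
The probe does not tell which of the 6 starts was used.

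Markers of some other cell types were higher in the cKO mice. The mean log2 ratio of 12 choroid plexus genes was 1.20, 2.02, 1.25, 1.58 and 2.47 in cKO mice, and 1.0, 1.16, 1.06, 0.65 and 0.45 in WT mice. All 12 were higher in cKO mice, by a median of 1.03, led by the potassium channel gene Kcnj13 (1.60, SE 0.38) and the transcription factor gene Otx2 (1.20, SE 0.40), and none passed the adjusted threshold. The mean of 12 oligodendrocyte genes was 3.37 to 3.60 in cKO mice and 2.97 to 3.39 in WT mice, with 10 of 12 higher and a median difference of 0.31, led by the myelin genes Cldn11 (0.56, SE 0.15) and Mag (0.51, SE 0.13). The cKO mouse 5 was the highest and WT mouse 5 the lowest of the 10 mice in Cntfr and in both lists. The same held for the astrocyte list (4.76 and 4.10) and the microglial list (2.40 and 1.90). These 2 arrays also had the lowest (146) and the highest (202) median Cy5. The cKO mouse 2 was next highest in the choroid plexus list, with a Cntfr ratio (4.50) below those of cKO mice 1, 3 and 5. The part of these markers in the Cntfr difference was not tested. Without the 2 mice highest in choroid plexus markers, cKO 2 and 5, a choice made after the data were seen, the Cntfr difference was 0.40. It was also 0.40 without cKO mouse 5 alone, the highest in Cntfr, so nothing is read from this choice about choroid plexus content.

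The other marker lists had smaller median differences. Of 12 genes each, 10 were higher in cKO mice in the endothelial list, 10 in the microglial and 9 in the astrocyte list. There were 8 in the meningeal list and 8 in the hippocampal neuron list. Over all features, 12920 of 23574 were higher. The mean of 12 astrocyte genes was 4.15 to 4.76 in cKO mice and 4.10 to 4.50 in WT mice, and that of 12 hippocampal neuron genes was 3.26 to 3.56 in cKO mice and 3.21 to 3.56 in WT mice. Median differences were 0.06 for astrocyte genes, 0.07 for microglial genes, 0.03 for hippocampal neuron genes, 0.11 for endothelial genes and 0.14 for meningeal genes. In the endothelial list the cKO means were 1.81 to 1.96 and the WT means 1.65 to 1.82. The group means were 1.89 ± 0.06 in cKO mice and 1.74 ± 0.07 in WT mice (SD), a gap that is large beside the spread. No gene of these lists passed the adjusted threshold. All 12 genes of each of these lists were measured.

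**Figure D4:**
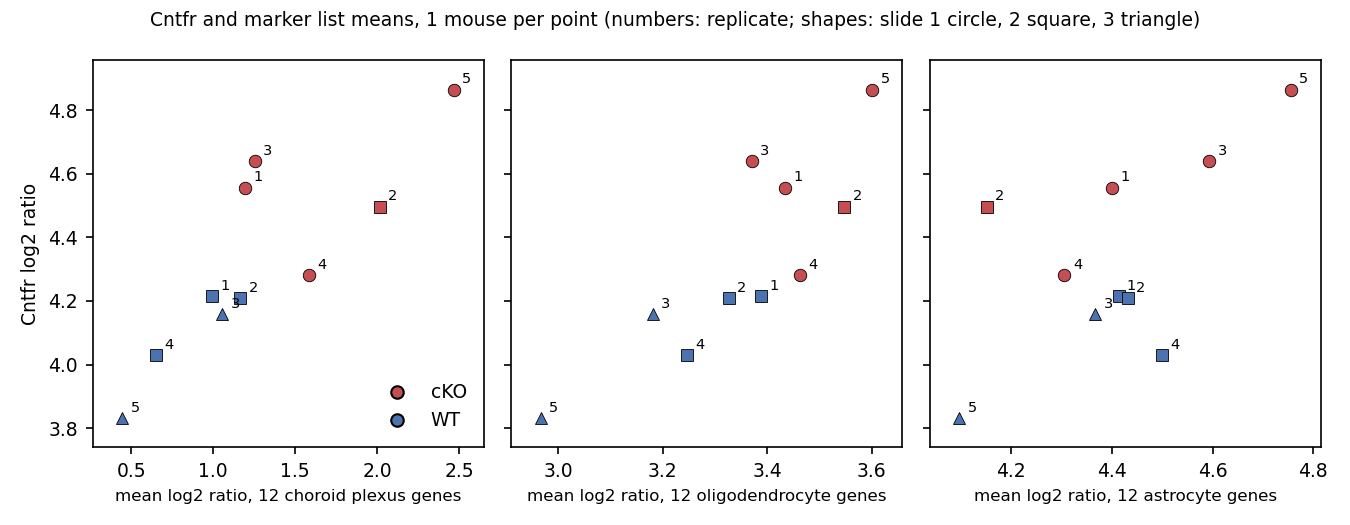
Log2 ratio of Cntfr (vertical axis) against the mean log2 ratio of 12 choroid plexus genes (left), 12 oligodendrocyte genes (middle) and 12 astrocyte genes (right) in each mouse; numbers give the replicate, colours the genotype and shapes the slide. The cKO mouse 5 is at the top right and WT mouse 5 at the bottom left of all 3 panels.

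Lifr (NM_013584), the subunit that both CNTF and LIF receptors share, had log2 ratios of 0.48, 0.54, 0.44, 0.48 and 0.19 at its brightest probe in cKO mice, and of 0.19, 0.68, 0.63, 0.38 and 0.67 in WT mice. In each group 1 mouse was at 0.19, and the groups overlapped. The difference was -0.09 (95% interval -0.31 to 0.14). The second probe of this transcript, A_51_P113182, had a difference of -0.01 (95% interval -0.15 to 0.13). The probe of NM_001113386, A_55_P2159264, was dim in the sample channel, with Cy5 of 59 to 78 in cKO mice and 63.5 to 75 in WT mice, and differed by 0.06 (95% interval -0.11 to 0.22).

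Il6st (NM_010560), the gp130 subunit that passes the signal to JAK kinases, had log2 ratios of -0.99, -0.91, -0.94, -1.04 and -0.92 in cKO mice, and of -0.97, -0.85, -0.87, -1.05 and -1.05 in WT mice. The cKO values lay within the WT range. The means were -0.96 ± 0.05 in cKO mice and -0.96 ± 0.10 in WT mice (SD, n = 5 each), and the 95% interval of the difference was -0.13 to 0.12. With a pooled SD of 0.0776, the interval was the narrowest of the 9 apart from that of Ngfr, at 0.914 to 1.09 on the fold scale. Of the 3 subunits of the CNTF receptor, Cntfr differed by 0.48, and the 2 signalling subunits had intervals that include 0. The difference between the subunits was not tested.

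Gfra1 (NM_010279), the GDNF-binding receptor subunit, had log2 ratios of 1.46, 1.35, 0.99, 1.60 and 1.08 in cKO mice, and of 1.42, 1.37, 1.12, 1.38 and 1.32 in WT mice. Both ends of the range were cKO mice, and the difference was -0.03 (95% interval -0.27 to 0.21). The reference signal of this probe fell into 2 sets of arrays. On 4 arrays, of cKO mice 3 and 5 and WT mice 3 and 5, Cy3 was 59 to 66 and the log2 ratio 0.99 to 1.32. On the other 6 arrays, 3 of each genotype, Cy3 was 37 to 42.5 and the log2 ratio 1.35 to 1.60. The arrays were split on Cy3, the denominator of the ratio, so the lower ratio on the first set is not a separate result. Cy5 also varied, at 146.5 to 213 in cKO mice and 168 to 254.5 in WT mice. The part of each channel was not tested. Cy3 was called well above background on 2 cKO and 2 WT arrays. With the local background simply subtracted, the difference was -0.40 (SE 0.73), against an SE of 0.11 as reported.

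The slides held the genotypes unevenly. Slide 1 held 4 cKO arrays, slide 2 held 1 cKO and 3 WT arrays, and slide 3 held 2 WT arrays, so that only slide 2 allows a comparison within a slide. There Cntfr was 4.50 in cKO mouse 2 and 4.03 to 4.22 in the WT mice, a difference of 0.35, and Ngfr differed by 0.24. The corresponding values were 0.39 for Bdnf, -0.25 for Ntf3, -0.21 for Ntrk2, 0.10 for Ntrk3, 0.13 for Lifr, 0.04 for Il6st and -0.04 for Gfra1. These rest on 1 cKO mouse. The fit with slide as a fixed block rests on the same comparison, because slides 1 and 3 each held 1 genotype. Its Cntfr difference is therefore the same 0.35 and not a second result. The SE there was 0.20 in place of 0.11, so that the 95% interval of Cntfr includes 0. These Cntfr values are also part of the contrast on which the gene was selected. Beside genotype, slide itself passed for 0 of the 9 genes in limma's moderated F test (adjusted p of 0.856 to 0.968) and for 0% of all features. At an unadjusted p under 0.05 it was 0 of the 9 genes and 4.70% of the features.

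The other genes of these pathways were read from 7 lists with 84 genes, of which 78 were tested. Plg, Ripk2, Il6, Pias3 and Gfral were among those that were not. None of the 78 passed the adjusted threshold in limma, and 3 had an unadjusted p under 0.05, with Pcsk1 and Gab1 higher and Tnfrsf19 lower in cKO mice. That is 3.85% of them, close to the 3.86% of all features. There were 43 higher and 35 lower genes, with a median difference of 0.0058 and a range of -0.21 to 0.32. Over all features 12920 were higher and 10654 lower, a lean to the same side. The counts of higher and lower genes by list are descriptions beside that lean and were not tested. All adjusted p-values of the genes named next were 0.99995.

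Among other neurotrophin receptors and ligands, 5 were higher and 6 lower. Tnfrsf19, a TNF receptor family member that can stand in for p75 in the Nogo receptor complex, was 3.16 ± 0.05 in cKO mice and 3.31 ± 0.12 in WT mice, a difference of -0.15 (SE 0.06). Lingo1, another part of that complex, differed by 0.23 (SE 0.14). Of the genes that process neurotrophins, 4 were higher and 3 lower. Pcsk1, a convertase of the secretory granule, was 2.66 ± 0.27 in cKO mice and 2.36 ± 0.18 in WT mice, a difference of 0.30 (SE 0.12). Furin, which cleaves neurotrophin precursors in the Golgi, differed by 0.12 (SE 0.08).

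Of the Trk adaptors and effectors, 12 were higher and 4 lower, with a median of 0.01 beside 0.0083 over all features. Gab1, a docking protein for PI3 kinase and SHP2, was 0.54 ± 0.13 in cKO mice and 0.31 ± 0.18 in WT mice, a difference of 0.23 (SE 0.09). Ptpn11, which encodes SHP2, differed by 0.07 (SE 0.05). Of the p75 adaptors 4 were higher and 5 lower, none at an unadjusted p under 0.05. The 2 of that list with the smallest p were Arhgdia, an inhibitor of small GTPases that p75 binds, at 0.10 (SE 0.06), and Zfp110, a zinc finger protein that binds p75, at -0.08 (SE 0.09).

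The remaining lists were on the side of CNTF and GDNF, and no gene of them had an unadjusted p under 0.05. Of CNTF, LIF and IL-6 family ligands and receptors, 6 were higher and 6 lower. Clcf1, a further ligand of the CNTF receptor, differed by -0.10 (SE 0.06). Of the JAK-STAT genes 9 were higher and 4 lower, among them the kinase gene Jak2 at 0.06 (SE 0.05). Of the GDNF family 3 were higher and 7 lower. Nrtn, the ligand neurturin, differed by 0.32 (SE 0.15), and Gdnf itself by -0.11 (SE 0.07). The plot of partner genes sets all 78 beside the 9.

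**Figure D5:**
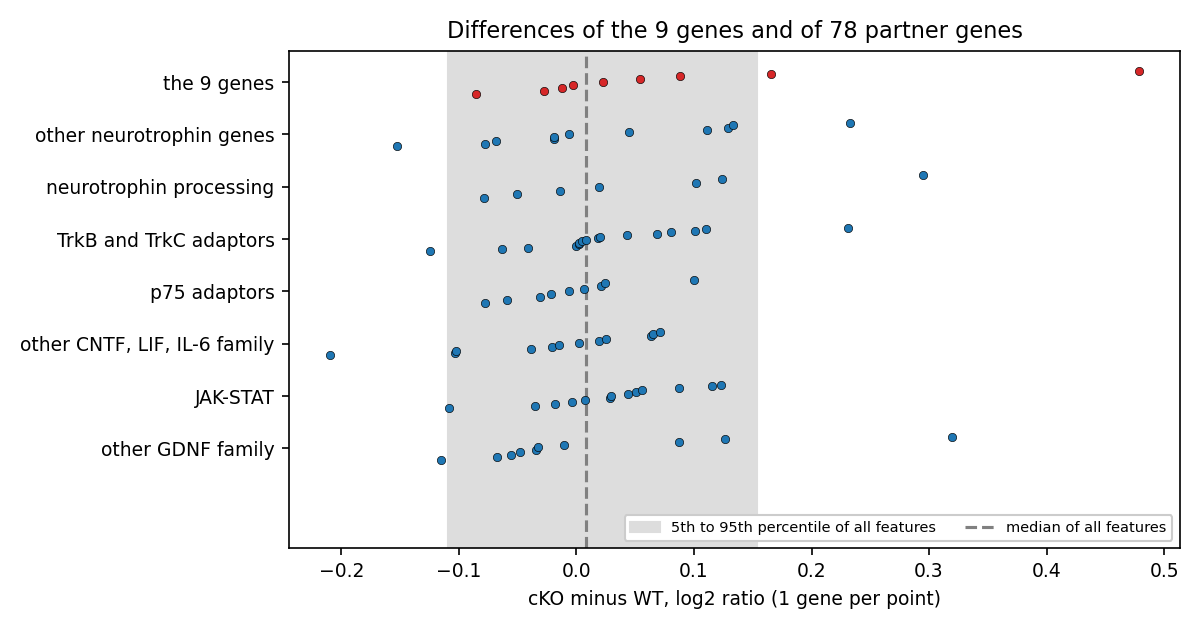
Difference in log2 ratio, cKO minus WT (horizontal axis), of the 9 genes (red) and of 78 partner genes in 7 lists (blue, 1 point per gene); the grey band is the 5th to 95th percentile of all features, -0.11 to 0.15, and the dashed line their median. Cntfr at 0.48 is the point farthest to the right, and most partner genes lie within the band.

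For 3 of the genes the features most like them over the 10 arrays were listed, with the genotype means removed. Cntfr was followed most closely by Btd (r = 0.971), Amhr2 (r = 0.970) and Dapp1 (r = 0.961). For Bdnf they were Pla2g6 (r = 0.983), Tmem259 (r = 0.972) and Kpnb1 (r = 0.968), and for Ntrk2 they were Wdtc1 (r = 0.981), Mbd3 (r = 0.964) and Rpl18 (r = 0.963). These are the highest of the correlations with 16268 named features, over arrays that share slides and differ in signal, and are a description only.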

How the data were processed

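The scanner files hold the median intensity of each spot and its local background in both channels, which per the file headers came from the authors' use of Agilent Feature Extraction (version 11.0.1.1). The same deposited files hold the software's background-subtracted, dye-normalised log10 ratios. The authors' deposited table holds log2 ratios, and the submitters' processing notes name limma. Its columns, with medians of 0.0120 to 0.0204, correlated with the log2 ratios computed here at 0.999975 or more and differed from them by a median of at most 0.00411 in absolute value, so its scale is log2 and its direction is sample over reference.

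Each array had 44397 spots, 1377 of them controls. Spots marked as non-uniform were left out, backgrounds were corrected by normexp (offset 50), and ratios were normalised by loess within arrays (limma 3.58.1, R 4.3.3). The offset draws the ratios of dim probes towards 0. Spots marked as population outliers were dropped and the spots of a probe were averaged. Probes well above background in Cy5 on at least 5 of 10 arrays were kept (28682), with the brightest for each gene, or for each accession that matched no gene (23574 features; 135 missing values were left missing). Of all probes, 67.4% matched a RefSeq gene of GRCm38.p6, used for names because the array headers name another build.

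Genotypes were compared with lmFit and eBayes, two-sided, with Benjamini-Hochberg adjustment over all features. SEs and intervals of each gene's brightest probe come from this fit, and those of further probes from a fit over every kept probe. In that fit 3 of 28682 probes passed, or 0.0105%, and none of the 16. Probe pairs were correlated with 100000 permutations. The fit was tested on simulated data.

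The 9 genes, the partner lists and the marker lists were chosen with earlier results of these data known. Partner genes were named at an unadjusted p under 0.05, and otherwise as the 2 of a list with the smallest p, except that some are not reported here. The text names the 3 features most like Cntfr, Bdnf and Ntrk2, and the 2 genes with the largest difference of each marker list of which single genes are given. Median Cy5 intensity per array was 146 to 202 over backgrounds of 29 to 31, and median Cy3 was 131.5 to 141.5 over 33 to 37. On each array 69.6% to 76.1% of probes were well above background, and arrays correlated at 0.980 to 0.996. The number of arrays limits the precision.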

Additional observations from a re-analysis of the deposited data

Results flagged for a closer look

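In 32 groups of 5 mice, 1 for each of the 16 probes and each genotype, the highest or lowest mouse was checked for a gap to the others that is large beside the range of the group. Chance alone gives such a gap in about 5% of groups, and 2 of the 32 groups had one, both at Lifr probes. At A_55_P2159259, cKO mouse 5 was at 0.19, while the other 4 cKO mice were at 0.44 to 0.54. At A_55_P2159264, WT mouse 5 was at -1.48, while the other 4 WT mice were at -1.39 to -1.38. Neither probe's groups were apart.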

How the results depend on the processing

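Besides leaving out arrays, 17 other settings were tried, and without any 1 array or under any of them 0 of the 9 genes and 0 of the partner genes passed the threshold for genotype, and 0 of the 9 for slide where slide was fitted. The number of features past the threshold, 1 as reported, was 0 with plain background subtraction, 0 with all spots kept, 0 within slide 2, 2 with all kept probes of a gene averaged and 3 with every probe tested on its own. Leaving out 1 array at a time gave 1 to 2 features, with 2 without cKO mouse 4. With the replicate number as a replicate block there was 1 feature and 0 of the 9 genes, and Cntfr was 0.48 (SE 0.12). The same-numbered arrays' deviations correlated at -0.56 to 0.16 and 0 cKO arrays correlated best with their own number, so the numbers were not taken as pairs.

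Over 28 alternatives, Cntfr ranged from 0.35 with slide as a fixed block (SE 0.20) to 0.80 with all spots kept (SE 0.27). Ngfr ranged from 0.02 with Cy5 alone to 0.29 with the scanner software's processed signals. Cntfr lay between 0.40 and 0.55 when 1 array was left out. The other genes took both signs: Bdnf -0.04 to 0.39, Ntf3 -0.25 to 0.32, Ntrk2 -0.21 to 0.08, Ntrk3 -0.11 to 0.25, Lifr -0.18 to 0.13, Il6st -0.09 to 0.04 and Gfra1 -0.40 to 0.16. Of 252 such values, 18 moved by over 1 SD, and the cause was not tested. Many of the 252 could not move, so this count does not measure stability. Equalising average intensities between arrays (Aquantile) and changing the filter on dim probes left every difference exactly as reported. So did testing every probe on its own and the replicate block. Averaging probes could not change a gene with 1 probe, and the fixed slide block repeated the within-slide differences. Signal limits Ntf3, Cntfr, Gfra1, A_65_P04961 of Ntrk2 and A_55_P2056533 of Ntrk3, whose reference channel was close to background. The within-slide values rest on 1 cKO mouse, and with 10 arrays the 95% intervals of Bdnf and Ntf3 reach up to 0.31 and 0.32.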
